A study of Mus musculus with 4 samples.

Results

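The comparison described here sets 4-hydroxytamoxifen (4-OHT) against vehicle in Meis1f/f CreER leukaemic cells, with 1 RNA sequencing library on each side. It used 2 of the 4 libraries of the study and 10922 of 22072 gene symbols, those with an FPKM (fragments per kilobase of transcript per M mapped fragments) of 1 or more in at least 1 library. All 4 libraries came from cultured bone marrow leukaemic cells of C57BL/6 mice that carried the MLL-AF9 knock-in allele (MLL-AF9-/+). The Meis1f/f cells were Meis1f/fCreER+/- in addition, that is, with floxed Meis1 alleles and a CreER transgene, and received vehicle or 1000 nM 4-OHT for 24 h. The control cells had the MLL-AF9 allele without floxed Meis1 or CreER, per the labels, and received the same treatments. All cells grew in IMDM with SCF, GM-CSF and the interleukins IL-3 and IL-6, each at 10 ng/ml. The sources used here do not give the promoter that drives CreER, the floxed part of Meis1 or the number of mice behind each culture. Since each group had 1 library, no difference has a replicate check, and no test, standard deviation or p-value is given.

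CreER is a recombinase fused to an altered oestrogen receptor. It stays outside the nucleus until 4-OHT binds it, after which it cuts out DNA between loxP sites. MEIS1 is a homeodomain protein that binds DNA with HOX and PBX partners and is needed by many leukaemias with MLL fusions. RNA from lost alleles and the proteins made from it disappear over hours to days, so a sample taken soon after 4-OHT can hold transcripts of both states.

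Depth was unequal between the libraries compared. The ratio of the deposited coverage to FPKM gave 1.93 gigabases of mapped sequence for Meis1f/f vehicle and 0.824 for Meis1f/f 4-OHT, against 1.29 for control vehicle and 1.00 for control 4-OHT. By the sheet names, Meis1f/f vehicle was run in lane 1 and the rest in lane 2, so lane and treatment cannot be told apart within the comparison. All 10 myeloid markers reached 1 FPKM in a Meis1f/f library, and 0 of 7 stromal markers did. All values below are in the order vehicle then 4-OHT in control cells, followed by vehicle then 4-OHT in Meis1f/f cells. In that order 6 mast cell and basophil markers summed to 236, 225, 2400 and 1934 FPKM and 6 mature dendritic cell markers to 69.0, 108, 187 and 287 FPKM. In control cells the dendritic sum rose mainly with H2-Aa (52.1 and 91.1 FPKM), and Itgax rose too, while Ccr7, Fscn1, Ccl22 and Cd83 were lower with 4-OHT. Erythroid markers (6) summed to 17.7, 6.26, 64.3 and 73.9 FPKM. Most of the Meis1f/f sums came from Hbb-b1 (42.6 and 47.4) and Hba-a1 (15.2 and 17.0). Alas2 and Slc4a1 were under 1 FPKM in every library and lower in Meis1f/f vehicle than in control vehicle. In bulk RNA, fewer cells of a type and less RNA per cell cannot be told apart.

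Meis1 itself was lower in the 4-OHT library without reaching the size rule. Its main transcript row was at 11.6, 12.1, 11.8 and 7.38 FPKM, and a second, weaker row was at 2.22, 1.07, 3.71 and 0.699 FPKM. The ratio of 4-OHT to vehicle in Meis1f/f cells was 0.625 for the main row (95% exact counting interval 0.534 to 0.729). FPKM is counted over the whole transcript, so these rows do not separate deleted from intact alleles. Counting intervals here and below take 100 bases per read, since the read length is not given. They cover counting error only, and shorter reads would make them narrower. Esr1, the oestrogen receptor that 4-OHT also binds, had a log2 difference of -0.23, and Hlf, a PAR bZIP transcription factor, was under 1 FPKM in all libraries.

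A gene was called higher or lower at a log2(FPKM + 1) difference, 4-OHT minus vehicle, of at least 1 in size. Of the 10922 genes, 178 were higher (1.63%) and 249 were lower (2.28%), together 3.91%. The distribution leaned the other way at small sizes: 6622 genes (60.6%) lay above 0, the median was 0.11 and the quartiles were -0.19 and 0.39. At a size of 0.5 there were 1821 higher and 1125 lower genes, at 1.5 there were 33 and 76, and at 3 there were 4 and 9. Small differences were thus mostly upward and large ones mostly downward. The split of called genes moved with scaling. Median ratio rescaling, which shifted the median of all genes by -0.12, gave 114 higher and 352 lower genes (24.5% higher, against 41.7% as deposited). Upper quartile rescaling shifted it by -0.09 and gave 124 and 319 (28.0%).

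**Figure D1:**
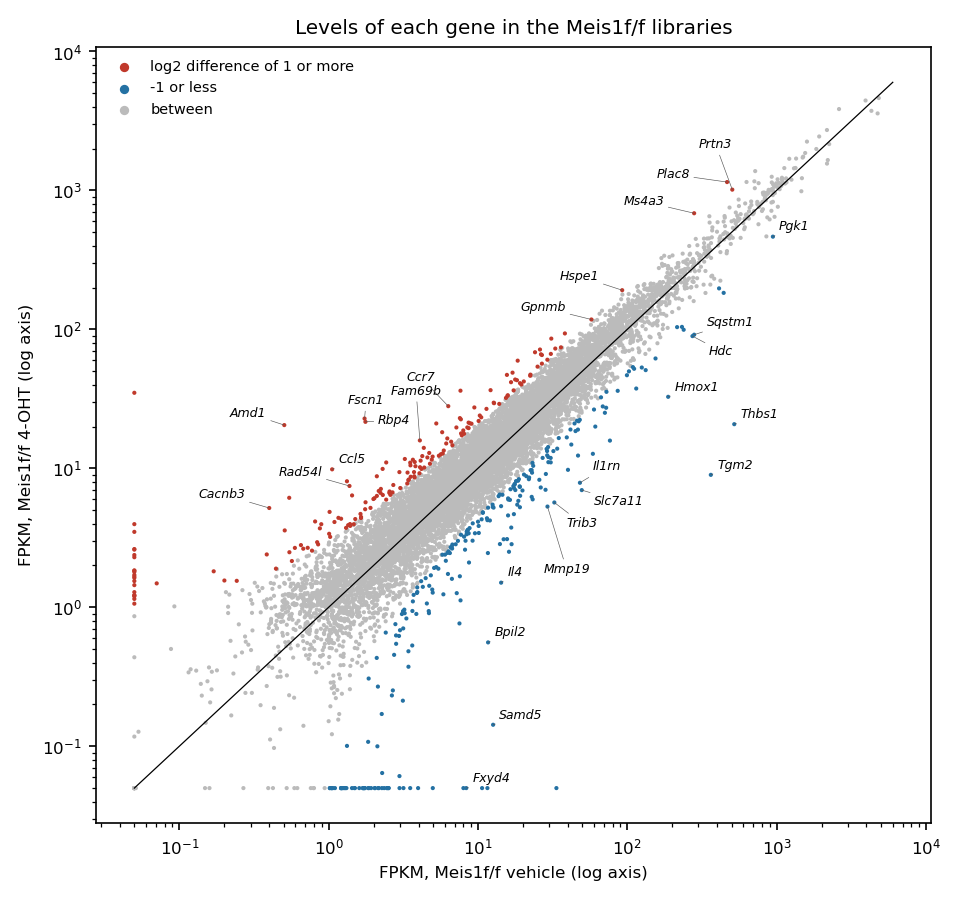
Each point is a gene, with its FPKM in Meis1f/f vehicle on the horizontal and in Meis1f/f 4-OHT on the vertical log axis. Values under 0.05 are drawn at 0.05, the line marks equal levels, and the 178 higher and 249 lower genes are coloured. Labels mark the 4 highest and 4 lowest called genes in each of 4 level classes, fewer where a class held fewer.

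At the highest levels the called genes were myeloid genes on the upper side, and Thbs1 and Pgk1 on the lower. Among genes at 500 FPKM or more, Plac8, a small protein of early myeloid cells, was at 926, 1117, 466 and 1149 FPKM. Ms4a3, a marker of granulocyte and monocyte progenitors, was at 645, 738, 281 and 685 FPKM. In each the 4-OHT library lay near the controls and the vehicle library below all others. Pgk1, phosphoglycerate kinase, was lower, with 945 FPKM under vehicle and 465 under 4-OHT against 1220 and 1111 in the controls. Thbs1, the matricellular protein thrombospondin 1, was at 362 and 427 FPKM in the controls, then 521 and 20.8 in the Meis1f/f pair (log2 difference -4.58). Between 100 and 500 FPKM the only higher genes named by the rule were Hspe1, the mitochondrial co-chaperonin, at 168, 188, 92.5 and 191 FPKM, and Gpnmb, a membrane glycoprotein of macrophages, at 31.2, 41.9, 57.5 and 118 FPKM. Hspe1 and Gpnmb fell short of the size rule under both rescalings (0.91 and 0.89 by median ratio). The 4 lowest in that class were Tgm2, Hmox1, Sqstm1 and Hdc.

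Transcript length was tied to the difference across genes. Genes were put in 10 classes of length. In the shortest class (53 to 1004 bases, median 713) the median log2 difference was 0.24, in the middle classes it was 0.14 and 0.08, and in the longest (5673 to 22489 bases) it was -0.15. The share of genes above 0 fell from 71.8% in the shortest class to 38.1% in the longest. Called genes did not follow a steady gradient. The 2 longest classes held 6 and 2 higher genes against 26 and 25 lower ones, the shortest held 47 and 51, and the classes between held 13 to 25 lower ones. Spearman's correlation of length with the difference was -0.24, a description across genes that share their 2 libraries. It was -0.25 in 8599 genes with a single row, -0.26 in 10658 genes of 500 bases or more and -0.26 in 10555 genes with a coding accession.

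The strength of the trend differed with level. The correlation was -0.10 in 3304 genes with a mean under 5 FPKM, -0.30 in 4151 genes at 5 to 20 FPKM, -0.32 in 2796 genes at 20 to 100 FPKM, -0.22 in 537 genes at 100 to 500 FPKM and 0.10 in 134 genes at 500 FPKM or more. The other pairs of libraries, which share libraries with this comparison, gave 0.05 for 4-OHT against vehicle in control cells, 0.25 for Meis1f/f against control under vehicle and 0.03 for the same under 4-OHT. The trend was therefore seen in the pairs that include the Meis1f/f vehicle library. Rows of the same gene did not show it. The split of signal between such rows can shift between libraries, so a trend within genes could be hidden. In 188 genes whose longest row was at least 1.5 times its shortest, the long row was the lower of the pair by difference in 88 (46.8%), and the median of long minus short was 0.05. At a length ratio of 3 or more, 37 genes gave -0.01.

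**Figure D2:**
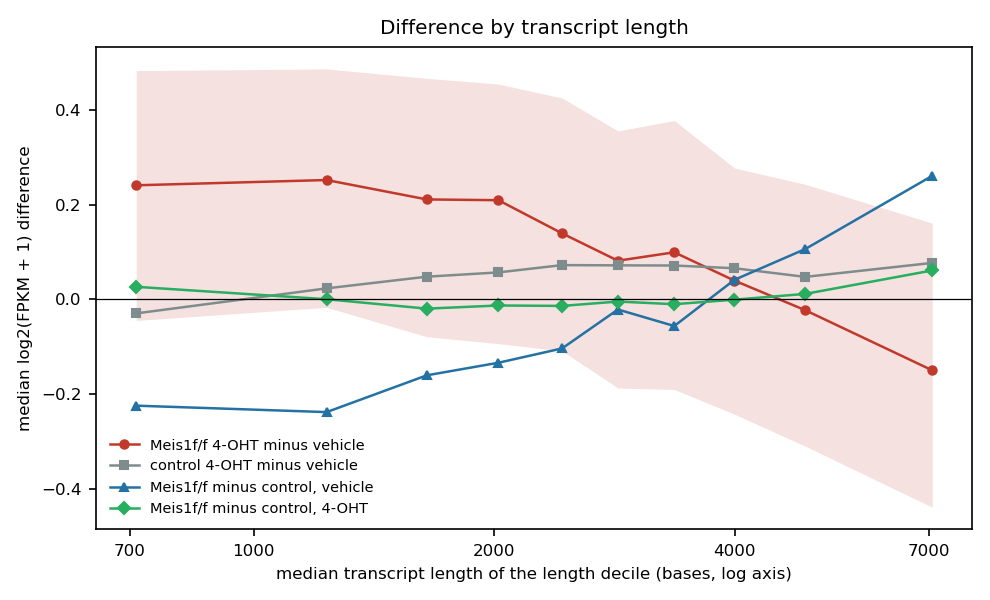
Median log2(FPKM + 1) difference in 10 length classes of about 1092 genes, plotted at the median length of the class (bases, log axis), with a line for each pair of libraries. The band spans the quartiles for Meis1f/f 4-OHT minus vehicle, whose median runs from 0.24 in the shortest to -0.15 in the longest class.

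The shortest length class was not uniform. It held 122 transcripts under 200 bases, all noncoding small RNAs, of which 22 were called higher and 37 lower (48.4%, against 3.35% in the longer classes). The 142 transcripts of 200 to under 500 bases held 0 called genes and had a median of 0.20, and the 829 of 500 to 1004 bases held 25 higher and 14 lower with a median of 0.27. Small RNAs were left out of the named genes. Named genes in the shortest class were Bex6 (5.26, 8.94, 2.10 and 8.77 FPKM), which was low in the vehicle library, and Ccl2, a monocyte chemokine (7.15, 8.46, 7.57 and 23 FPKM), which was high in the 4-OHT library. On the lower side were Nupr1, a small stress-induced chromatin protein (14.9, 10.1, 16.7 and 3.75 FPKM), and Apoa1, the main apolipoprotein of high-density lipoprotein (0.638, 0.238, 8.71 and 2.10 FPKM).

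The longest class had few genes that rose. B4galt6, a galactosyltransferase that makes lactosylceramide, was at 13.7, 36.9, 9.46 and 27.4 FPKM, so it was higher with 4-OHT in both genotypes. Dio2, which converts thyroxine to its active form, was at 1.43, 3.72, 2.0 and 6.02 FPKM, with a log2 difference of 0.96 in control cells. These 2 were the only higher genes of that class. Among its lower genes, Plec, the giant cytoskeletal linker plectin encoded by a transcript of 15003 bases, was at 2.16, 2.90, 14.9 and 3.09 FPKM, and Malat1, a long nuclear noncoding RNA, was at 6.89, 9.15, 26.3 and 7.28 FPKM. In both of these the vehicle library stood above the other 3, which lay close together.

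Subtracting the median of each gene's length class left 103 genes higher (0.943%) and 337 lower (3.09%). Of the original calls 95 higher and 238 lower were kept, 83 higher and 11 lower were lost, and 8 higher and 99 lower were gained. Lost on the higher side were, among others, Prtn3 (from 1.00 to 0.76), Hspe1 (1.04 to 0.80), Med21 of the Mediator complex (1.12 to 0.88) and Tufm, the mitochondrial elongation factor (1.04 to 0.83). Lost on the lower side were long transcripts such as Ep300, a histone acetyltransferase (-1.01 to -0.86), and Slc23a2, a vitamin C transporter (-1.0 to -0.85). Gained on the lower side were Ngp, neutrophilic granule protein (-0.87 to -1.12), Asns, asparagine synthetase (-0.98 to -1.19), and Slc3a2, the heavy chain of amino acid exchangers (-0.92 to -1.06). Gained on the higher side were Orc3 of the origin recognition complex (0.86 to 1.01) and Gemin5, the RNA-binding subunit of the SMN complex (0.97 to 1.12).

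A larger part of the lower genes set the vehicle library apart from the controls than set the 4-OHT library apart. Of the 249 lower genes, Meis1f/f vehicle alone lay 1 or more (log2) outside the range of the control libraries in 96 (38.6%), Meis1f/f 4-OHT alone in 33 (13.3%), both in 14 and neither in 106. Of the 178 higher genes the counts were 31, 33, 3 and 111. The size rule chose these genes on the same Meis1f/f libraries, so the counts describe the calls and are not an independent measure. Of all 10922 genes, vehicle alone lay outside in 335 (3.07%), 4-OHT alone in 148 (1.36%), both in 245 and neither in 10194. Among them Meis1f/f vehicle lay 1 or more above all other libraries in 108 (0.989%) and below them in 31 (0.284%). For Meis1f/f 4-OHT the counts were 36 (0.33%) and 37 (0.339%).

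**Figure D3:**
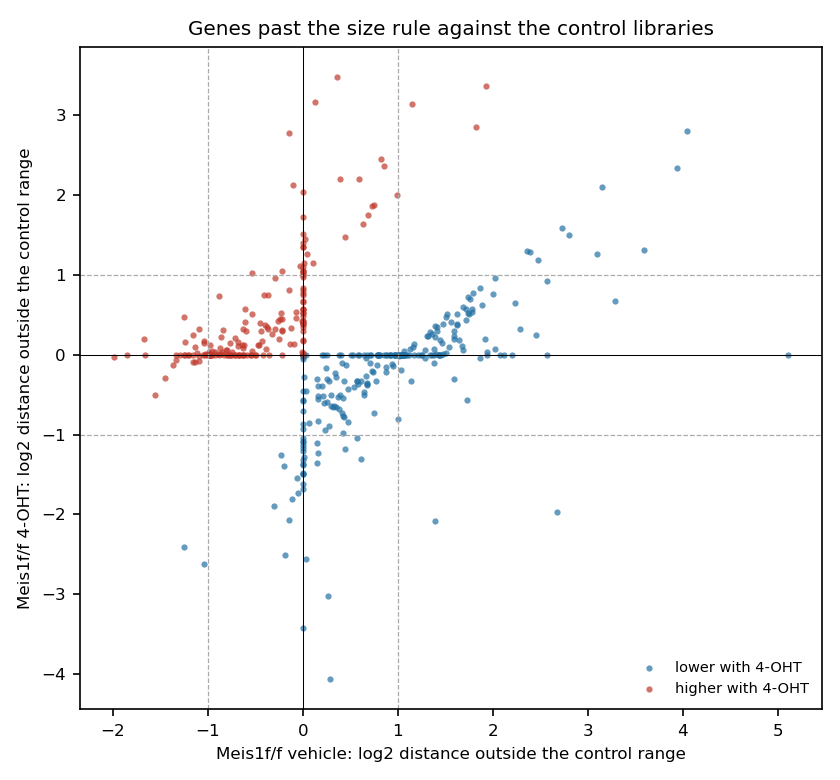
Each point is a called gene, placed by the log2 distance of its Meis1f/f vehicle level (horizontal) and its Meis1f/f 4-OHT level (vertical) outside the range of the 2 control libraries, with 0 for a level inside that range. Dashed lines mark a distance of 1. Beyond 1 on the horizontal axis alone lie 96 of the 249 lower genes, and beyond 1 on the vertical axis alone 33.

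Genes for which the 4-OHT library was the distant one make up the smaller group. Thbs1, thrombospondin 1, lay at a log2 distance of -4.06 from the control range with 4-OHT and of 0.29 under vehicle. Bpil2, a protein related to bactericidal permeability-increasing protein, was at 11.4, 8.16, 11.7 and 0.559 FPKM. Selenbp1, a selenium-binding protein with methanethiol oxidase activity, was at 44.3, 69.9, 40.1 and 9.76 FPKM, a ratio of 0.243 (counting interval 0.202 to 0.291). In both, the 4-OHT library of Meis1f/f cells was the low one. On the upper side, Fscn1, which bundles actin in dendritic cells, lay 3.48 above the control range with 4-OHT (1.14, 0.769, 1.74 and 22.8 FPKM), and the retinol carrier Rbp4 lay 3.17 above it (1.52, 0.324, 1.76 and 21.6 FPKM). Amd1 of polyamine synthesis lay 2.78 above it, but it has near-identical copies in the genome and its value is uncertain.

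Genes for which the vehicle library was the distant one included Csf1, Slc6a9 and Lmo2. Csf1, the macrophage growth factor, was at 4.57, 4.22, 46.8 and 12.4 FPKM, so 4-OHT lay between vehicle and the controls. Slc6a9, a glycine transporter, was at 2.25, 1.84, 16.8 and 2.85 FPKM, with 4-OHT close to the controls. Below the other libraries were Lmo2, a bridging factor of GATA and TAL1 complexes (55.1, 57.3, 24.1 and 68.5 FPKM), Acot1, a cytosolic acyl-CoA thioesterase (12.9, 10.3, 3.38 and 9.33 FPKM), and Bace1, a membrane aspartyl protease (13.8, 18.8, 5.26 and 21.0 FPKM). Tgm2, tissue transglutaminase, was distant in both directions, at a log2 distance of 2.67 from the control range under vehicle and of -1.97 with 4-OHT.

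The 67 gene lists were read by their counts and medians beside those of all genes. Over all 10922 genes, 1.63% were called higher, 2.28% were called lower and 60.6% lay above 0. These shares go beside every list count below. Across lists, the median log2 difference went with the median transcript length of the list (Spearman's correlation -0.39, and -0.12 after the length medians were subtracted). The median was below 0 in 27 lists as measured and in 38 after subtraction, and 13 lists changed sign. No list was tested against others, and the lists were written with earlier results of these data known.

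**Figure D4:**
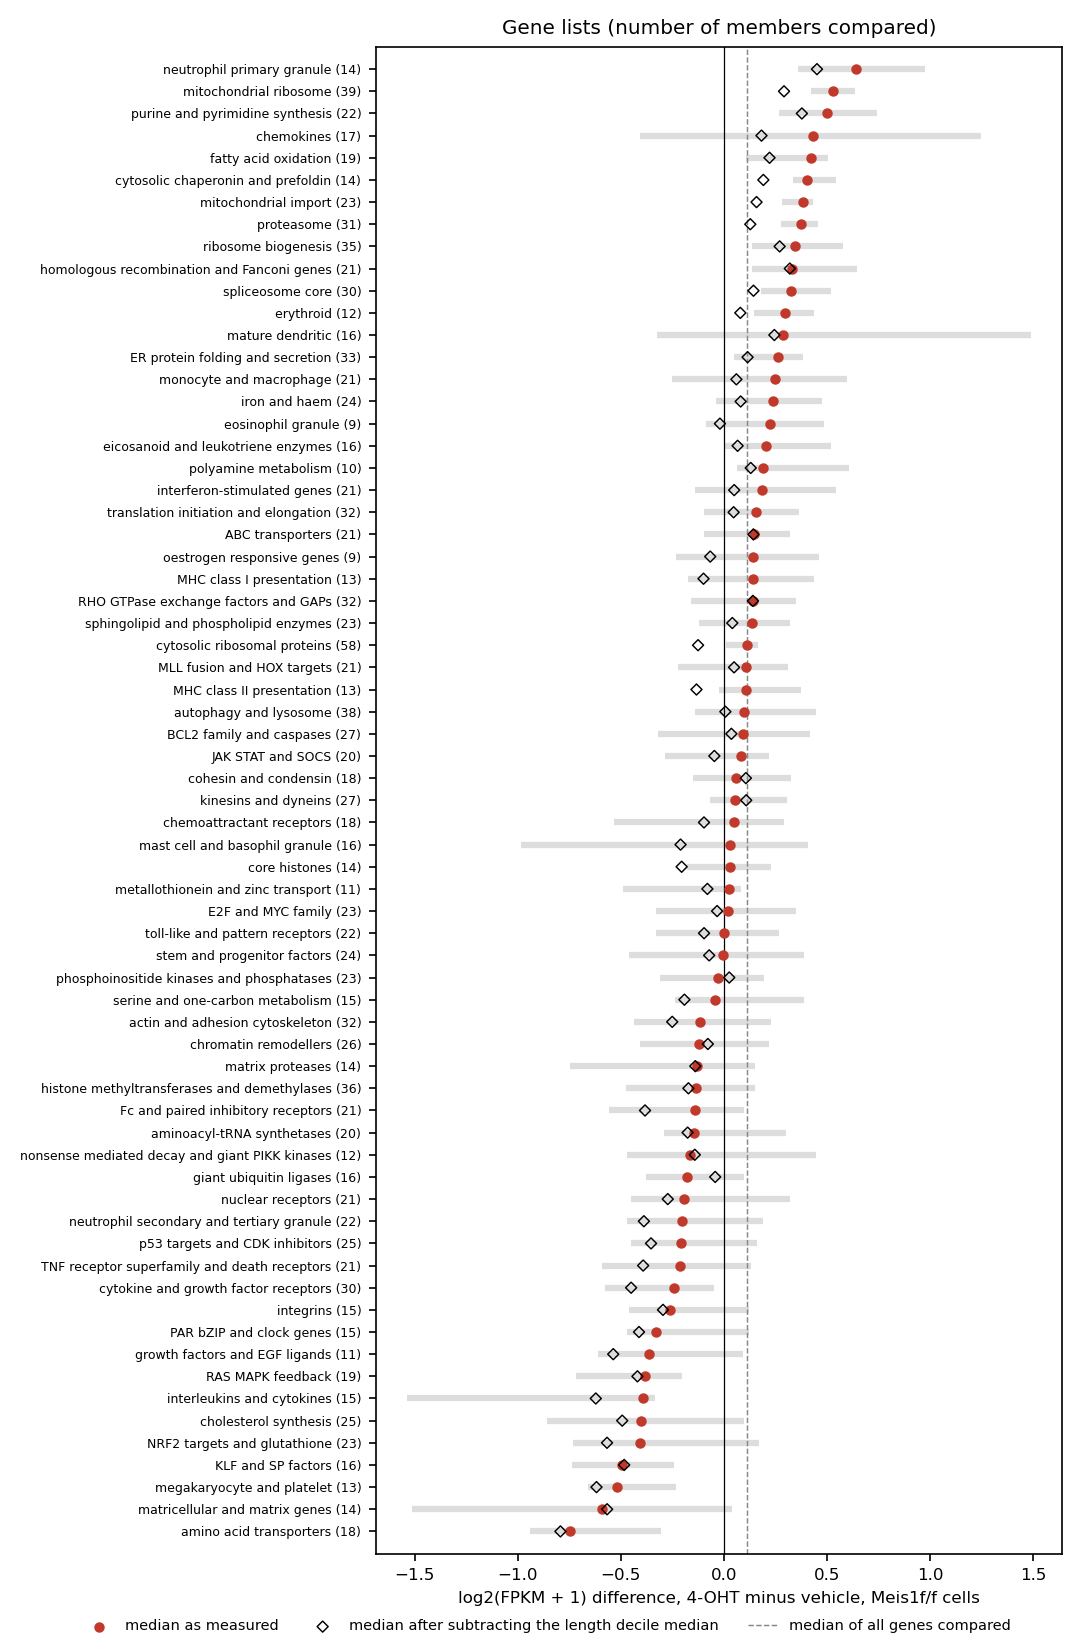
Median log2(FPKM + 1) difference of 67 gene lists, sorted, with the number of members compared in brackets. Bars span the quartiles of the members, filled points are medians as measured, diamonds are medians after the length class medians were subtracted, and the dashed line is the median of all genes, 0.11. Short-transcript lists such as the mitochondrial ribosome and proteasome lie to the right and move left on subtraction.

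Machinery for making nucleotides, ribosomes and mitochondria was shifted upward as whole lists, with almost no single gene past the size rule. All 22 genes of purine and pyrimidine synthesis were above 0, with a median of 0.50 (0.38 after length subtraction, 0.37 under median ratio rescaling) and 1 gene called. That gene was Gart, which carries 3 steps of purine synthesis, at 50, 61.9, 30.8 and 66.6 FPKM. Gart fell just short of the rule under both rescalings (0.96 and 0.99) and after length subtraction (0.99). Umps, which makes uridine monophosphate, was at 34.0, 41.0, 20.3 and 38.0 FPKM, and Impdh2, which commits inosine monophosphate to guanine nucleotides, at 168, 158, 87.4 and 151 FPKM. The vehicle library was the low one in all 3.

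All 39 mitochondrial ribosome genes were above 0 as well, with 0 called. The share above 0 was 60.6% over all genes and 71.8% in the shortest length class. Their median was 0.53, and 0.29 after length subtraction, since the list has a median length of 992 bases. Mrpl12 was at 91.8, 89.5, 48.2 and 93.1 FPKM, which put the 4-OHT library level with the controls. Of 23 mitochondrial import genes 21 were above 0 (median 0.39, 0.16 after subtraction), among them Phb, prohibitin, at 95.1, 80.8, 42.4 and 80.9 FPKM. Fatty acid oxidation genes (18 of 19 above 0) had a median of 0.42 and 0.22 after subtraction, with Acaa2, the last thiolase of the spiral, at 38.0, 35.9, 19.8 and 33.9 FPKM.

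Ribosome biogenesis genes had 1 higher and 0 lower member of 35, and 33 were above 0 (median 0.35, 0.27 after subtraction). The called gene was Bop1, needed for the large subunit, at 46.2, 41.4, 22.4 and 46.4 FPKM. Bop1 fell short of the rule with a pseudocount of 5 (0.91), under both rescalings (0.89 and 0.92) and after length subtraction (0.88). Nop56 of the box C/D particle was at 96.3, 116, 62.9 and 117 FPKM. The cytosolic ribosomal proteins differed from the genes that assemble them. Their 58 members had a median of 0.11, equal to that of all genes, which became -0.13 after length subtraction and -0.02 under median ratio rescaling. Only Rpl34 was called (35.2, 29.0, 15.9 and 33.6 FPKM), and it fell short of the rule under 4 of the alternatives.

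Folding, splicing and protein breakdown showed the same uniform small shift. All 14 chaperonin and prefoldin genes were above 0 (median 0.40, 0.19 after subtraction), with Cct3 at 163, 157, 101 and 165 FPKM. All 30 spliceosome genes were above 0 (0.33 and 0.14), with Snrpa1 of the U2 particle at 57.2, 58.4, 30.7 and 58.4 FPKM, and 30 of 31 proteasome genes were (0.38 and 0.13), with Psmd13 at 92.6, 86.7, 53.4 and 84.8 FPKM. None of these genes was called. After subtraction the medians stayed above the 0 that subtraction sets for all genes, at no more than 0.19. Homologous recombination and Fanconi genes kept 0.32 of a median of 0.33 after subtraction (20 of 21 above 0). With 4-OHT in control cells the median of that list was 0.41. Their 2 called members were Fancg and Rad54l, with differences whose size depended on the choice of row. Summed over rows the differences were 0.69 and 1.24, so that Rad54l kept its call and Fancg did not. Meis1f/f vehicle stayed the lowest library in both after summing (4.62 FPKM for Fancg and 5.96 for Rad54l).

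Primary granule genes, which neutrophil precursors make first, were the list with the highest median. All 14 were above 0 with a median of 0.64 (0.45 after subtraction), and 4 were called higher. The 4 were Gfi1, Plac8, Ms4a3 and Prtn3, and not all of them encode granule proteins. Plac8 and Ms4a3 are the early myeloid and progenitor genes given above. Gfi1, a repressor needed for granulocyte development, was at 34.6, 37.5, 15.6 and 47.0 FPKM, a ratio of 3.01 (counting interval 2.75 to 3.29). Prtn3, proteinase 3, was at 1005, 1275, 505 and 1013 FPKM, a log2 difference of 1.00 that fell short of the rule under 4 alternatives. Again the vehicle library was the low one. The later granules went the other way: the median of 22 genes of secondary and tertiary granules was -0.20 (-0.39 after subtraction), with 0 called and Ngp at 978, 749, 855 and 467 FPKM.

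Among stem and progenitor factors 2 genes rose and 1 fell of 24, and the median was 0.00. The higher genes were Gfi1 and Lmo2. The lower gene was Gfi1b, the paralogue of Gfi1 used in erythroid and megakaryocytic cells, at 3.12, 3.0, 18.3 and 5.48 FPKM. Gata2 was at 16.9, 10.3, 105 and 54.6 FPKM, short of the rule. Gfi1 and Gfi1b thus moved in opposite directions, and in each the vehicle library was farther from the controls than the 4-OHT library was.

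Of 17 chemokine genes 5 were higher and 2 were lower (median 0.43, 0.18 after subtraction). The 5 higher ones were the CC chemokines Ccl5, Ccl22, Ccl17, Ccl2 and Ccl7. Ccl17, a ligand of CCR4 as Ccl22 is, was at 5.88, 7.43, 31.0 and 85.8 FPKM, and Ccl7, next to Ccl2 on chromosome 11, was at 1.58, 2.79, 2.23 and 6.66 FPKM. The 2 lower ones were the CXC chemokines Cxcl2 and Cxcl3, neutrophil attractants, of which Cxcl3 was at 1.37, 1.18, 7.65 and 1.12 FPKM. The other 10 genes were not called, and families were not compared. The higher genes were highest in the 4-OHT library, whereas Cxcl3 was high in the vehicle library alone.

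Mature dendritic cell genes had 5 higher and 1 lower member of 16 (median 0.28, 0.25 after subtraction). Ccr7, the receptor for homing to lymph nodes, was at 2.30, 1.74, 6.33 and 28.0 FPKM, and Cacnb3, a calcium channel subunit, at 0.504, 0.327, 0.400 and 5.18 FPKM. The lower member was the transcription factor gene Irf4, at 4.48, 4.03, 15.9 and 6.08 FPKM. The summed dendritic markers given above (187 FPKM under vehicle and 287 under 4-OHT) share Ccr7, Fscn1 and Ccl22 with this list. Most of the rise in the sum came from these genes, so it is not a separate measure. Among the other markers, Itgax (17.4 and 19.8 FPKM) and H2-Aa (138 and 148) moved little, and Cd83 was at 4.71 and 9.48. The class II antigen presentation genes, which dendritic cells also express, had 0 of 13 called and a median of 0.11 (-0.13 after subtraction, -0.02 under median ratio rescaling). Whether the share of such cells differed was not tested.

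Monocyte and macrophage genes had 1 of 21 called, Gpnmb, beside 3.91% over all genes. The list median of 0.25 fell to 0.06 after subtraction. Of the 21 genes 15 were above 0. Mrc1, the mannose receptor, was at 3.26, 6.03, 10.4 and 20.8 FPKM, and was higher with 4-OHT in control cells too (log2 difference 0.72). C1qc of the same list went the other way, at 2.68, 2.46, 1.73 and 0.478 FPKM. Of 24 iron and haem genes 1 was called higher and 1 lower. The higher gene was Steap3, a reductase that frees iron from transferrin, at 5.83, 9.38, 4.24 and 12.3 FPKM. The lower gene was Hmox1, with a larger log2 difference of -2.49. Ccnd1, cyclin D1, was called higher at 1.74, 5.57, 2.71 and 7.59 FPKM and was higher with 4-OHT in control cells too.

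Transporters of amino acids had the lowest list median. Of 18 genes 4 were lower and 0 higher, and the median was -0.75 (-0.79 after length subtraction, -0.83 under median ratio rescaling). Slc7a11, which exchanges cystine for glutamate, was at 11, 4.41, 49.6 and 6.97 FPKM, a ratio of 0.141 (counting interval 0.129 to 0.153). Slc7a5, the large neutral amino acid exchanger, was at 94.2, 110, 239 and 99.4 FPKM, and Slc1a4, a neutral amino acid transporter that carries serine and alanine, was at 1.06, 2.30, 7.35 and 3.01 FPKM. Slc7a1, which imports arginine and lysine, and Slc3a2, the partner chain of Slc7a5 and Slc7a11, fell just short with differences of -0.95 and -0.92. In all of these the vehicle library was the high one and the 4-OHT library lay near the controls. The fourth lower member was Slc6a9, given above.

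Several of these transporters, with Trib3 and Nupr1, are known targets of ATF4, the transcription factor of amino acid shortage and the integrated stress response. Trib3, a pseudokinase that feeds back on ATF4, was at 10.6, 15.8, 32.5 and 5.68 FPKM. Here and in Nupr1 the 4-OHT library was below all others. The aminoacyl-tRNA synthetases, a further group of ATF4 targets, had 0 of 20 called and a median of -0.15 (-0.18 after subtraction), with Gars at 119, 127, 159 and 107 FPKM. Promoters of 4 of the lower genes are shown because they hold the composite element that ATF4 binds with C/EBP partners, searched as TGATGNAA on both strands, where N is any base. They are RefSeq sequences of GRCm38.p6, 250 bases before to 50 bases after the start, written 5′ to 3′ on the strand of the gene (the minus strand for all 4), and capitals mark the matches. They lie at chr2:152344011-152344310 (Trib3), chr3:50443564-50443863 (Slc7a11), chr7:126625421-126625720 (Nupr1) and chr11:20332664-20332963 (Slc1a4).
Trib3: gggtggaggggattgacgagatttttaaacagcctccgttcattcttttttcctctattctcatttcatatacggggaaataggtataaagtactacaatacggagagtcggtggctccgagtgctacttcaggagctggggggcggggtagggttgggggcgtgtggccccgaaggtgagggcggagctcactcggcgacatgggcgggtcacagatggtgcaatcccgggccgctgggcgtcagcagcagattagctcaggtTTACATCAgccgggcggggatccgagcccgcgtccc
Slc7a11: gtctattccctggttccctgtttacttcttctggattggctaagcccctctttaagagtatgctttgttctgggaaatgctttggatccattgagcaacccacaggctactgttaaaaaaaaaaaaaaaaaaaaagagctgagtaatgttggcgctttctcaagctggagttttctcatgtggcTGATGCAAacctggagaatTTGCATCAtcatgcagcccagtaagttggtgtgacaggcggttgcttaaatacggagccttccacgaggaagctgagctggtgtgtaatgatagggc
Nupr1: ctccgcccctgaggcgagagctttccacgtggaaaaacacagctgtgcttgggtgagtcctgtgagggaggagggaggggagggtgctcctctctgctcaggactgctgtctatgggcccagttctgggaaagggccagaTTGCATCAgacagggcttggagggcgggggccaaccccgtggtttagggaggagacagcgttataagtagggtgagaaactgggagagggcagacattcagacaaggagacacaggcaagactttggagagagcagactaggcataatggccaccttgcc
Slc1a4: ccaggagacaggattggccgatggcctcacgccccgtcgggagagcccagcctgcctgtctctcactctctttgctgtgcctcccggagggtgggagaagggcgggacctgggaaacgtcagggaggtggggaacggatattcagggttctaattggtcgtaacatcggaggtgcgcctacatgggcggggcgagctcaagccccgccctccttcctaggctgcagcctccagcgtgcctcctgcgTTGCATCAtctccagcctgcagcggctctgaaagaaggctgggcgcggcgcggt
Slc7a11 holds 2 matches on opposite strands and the others hold 1 each. The first match begins at position 14 from the start in Trib3, -66 in Slc7a11, -110 in Nupr1 and -4 in Slc1a4. Counted per promoter, the element occurs in 3.97% of all 32851 promoters. Counted per gene over any of its promoters, it occurs in 13 of the 168 lower genes that could be matched. Since only 168 of the 249 lower genes were matched, under 80%, a comparison of shares is void. These 4 promoters were chosen for display after the values were seen, and a match is a string of letters and not a measured binding site.

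Genes of the NRF2 response, which protects cells from oxidants, had 5 lower and 0 higher of 23 (median -0.41, -0.57 after subtraction, -0.51 under median ratio rescaling). Besides Slc7a11 they were Hmox1, Sqstm1, Srxn1 and Me1. Hmox1, which degrades haem, was at 61.7, 40.8, 188 and 32.7 FPKM, and Srxn1, sulfiredoxin, was at 12.5, 13.8, 42.2 and 14.8 FPKM. Sqstm1, the autophagy receptor p62, was at 147, 71.1, 281 and 91.6 FPKM, and was lower with 4-OHT in control cells as well (log2 difference -1.04). Slc7a11 was too (-1.15), and the median of the list with 4-OHT in control cells was -0.34. Whether the genotypes differ was not tested. The vehicle library was the highest in all 3. Not all of the list took part: 10 of its 23 members were above 0.

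Cholesterol genes, driven by SREBP2 when sterols are low, had 4 lower and 0 higher of 25 (median -0.40, -0.49 after subtraction). Hmgcs1, HMG-CoA synthase, was at 28.1, 38.8, 61.1 and 20.0 FPKM. Insig1, which holds back SREBP processing, was at 53.8, 72.3, 72.6 and 35.5 FPKM. In Hmgcs1 and Insig1 the 4-OHT library was below all others, in contrast to the transporters. The Hmgcs1 promoter is shown as an example with a sterol regulatory element, searched as TCACNCCAC on both strands and marked by capitals, at chr13:119690101-119690400 on the plus strand (RefSeq, GRCm38.p6).
Hmgcs1: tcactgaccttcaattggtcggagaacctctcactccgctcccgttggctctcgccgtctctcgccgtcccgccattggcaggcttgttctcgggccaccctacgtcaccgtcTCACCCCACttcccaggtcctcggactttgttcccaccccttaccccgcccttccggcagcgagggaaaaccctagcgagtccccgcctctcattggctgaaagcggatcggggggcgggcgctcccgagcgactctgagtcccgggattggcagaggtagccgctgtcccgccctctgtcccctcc
The match begins at position -137 from the start. This string occurs in 1.24% of all 32851 promoters, counted per promoter, and in 7 of the 168 matched lower genes, counted per gene. The same limit on comparing shares holds.

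Negative feedback genes of RAS and MAPK signalling had 3 lower and 0 higher of 19 (median -0.38, -0.42 after subtraction, -0.51 under median ratio rescaling). Dusp5, a phosphatase of nuclear ERK, was at 13.6, 9.94, 29.6 and 12.1 FPKM, and Phlda1 at 2.74, 2.28, 11.5 and 4.37 FPKM, both high in the vehicle library. Errfi1, an inhibitor of EGF receptors, was instead low in the 4-OHT library at 3.62, 3.84, 3.87 and 0.896 FPKM. Socs3, which shuts off STAT3 signalling by IL-6 and G-CSF receptors, was at 18.6, 11.7, 16 and 5.96 FPKM. It was the only called gene of 20 in JAK STAT signalling, beside 3.91% over all genes. The median of that list was 0.08, or -0.04 under median ratio rescaling.

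Kruppel-like and SP factors had 2 lower of 16, Klf3 and Klf5, and 13 of 16 below 0 (median -0.50, -0.48 after subtraction). Klf3, a repressor of the family, was at 13.6, 9.57, 17.6 and 7.70 FPKM, and Klf5 at 2.09, 1.63, 6.72 and 2.65 FPKM. E2f2 was the only called gene of 23 in the E2F and MYC families (3.91% over all genes), at 16.8, 14.5, 27.1 and 11.9 FPKM. Its list had a median of 0.02, with a sign that turned under median ratio rescaling (-0.11).

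Of 15 interleukins and cytokines 6 were lower and 0 higher (median -0.39, -0.62 after subtraction, -0.52 under median ratio rescaling). Il6, which was also supplied in the medium as protein, was at 4.31, 3.44, 86.3 and 36.1 FPKM, and the type 2 cytokine Il13 at 0.418, 0.419, 16.1 and 2.51 FPKM. Both stayed above the controls with 4-OHT. Il1rn, the interleukin 1 receptor antagonist, was at 13.9, 12.1, 48.2 and 7.87 FPKM, so it ended below the controls. Il1b itself was called lower from a low level, at 5.15, 2.31, 6.36 and 2.53 FPKM. The summed mast cell and basophil markers, cells known to make Il4 and Il13, were 2400 FPKM under vehicle and 1934 under 4-OHT, but the 6 markers did not move one way. Mcpt8 (1466 and 987), Prss34 (232 and 104) and Hdc (273 and 89.4) had the lower FPKM under 4-OHT. Cpa3 (355 and 652), Ms4a2 (17.6 and 28.4) and Fcer1a (56.6 and 73.7) had the higher. The part of these cells in the result was not tested.

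Matrix and matricellular genes had 6 lower and 0 higher of 14 (median -0.59, -0.57 after subtraction). Beside Tgm2 and Thbs1 they included Timp3, Spp1 and Fn1. Timp3, an inhibitor of metalloproteinases bound to matrix, was at 7.61, 4.70, 3.63 and 0.531 FPKM, below the controls in both Meis1f/f libraries. Spp1, osteopontin, was at 220, 181, 442 and 183 FPKM and Fn1, fibronectin, at 1.59, 3.17, 12.7 and 5.22 FPKM, both high in the vehicle library. Of 7 stromal fibroblast markers, none reached 1 FPKM in a Meis1f/f library. Among proteases, Mmp19 was called lower at 21.5, 9.75, 29.2 and 5.31 FPKM, with -1.25 once its rows were summed.

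Pattern receptors of innate immunity had 4 lower and 0 higher of 22, though the list median was 0.00 (-0.09 under median ratio rescaling). Nlrp3, the sensor of the inflammasome, was at 17.2, 12.1, 15.7 and 3.10 FPKM, a ratio of 0.198 (counting interval 0.160 to 0.242), and only the 4-OHT library was low. Cd14, the co-receptor for lipopolysaccharide, was at 41.4, 19.7, 72.2 and 27.3 FPKM, and Clec4e, a receptor for mycobacterial glycolipid, at 32.8, 25.8, 39.4 and 16.7 FPKM. The fourth was Clec4d, at 18.1, 13.8, 20.3 and 9.02 FPKM, which fell short of the rule once its rows were summed (-0.89). The separate list of chemoattractant receptors had 1 higher and 2 lower of 18 (median 0.05, -0.10 after subtraction). Of that list, Ptafr, the receptor for platelet activating factor, was called lower at 13.8, 6.36, 18.6 and 5.83 FPKM. Cd14 and Ptafr were also lower with 4-OHT in control cells. Tnfrsf18, the co-stimulatory receptor GITR, was at 8.05, 9.41, 34.0 and 13.9 FPKM, as 1 of 2 lower genes among 21 of the TNF receptor superfamily (median -0.21, -0.39 after subtraction).

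**Figure D5:**
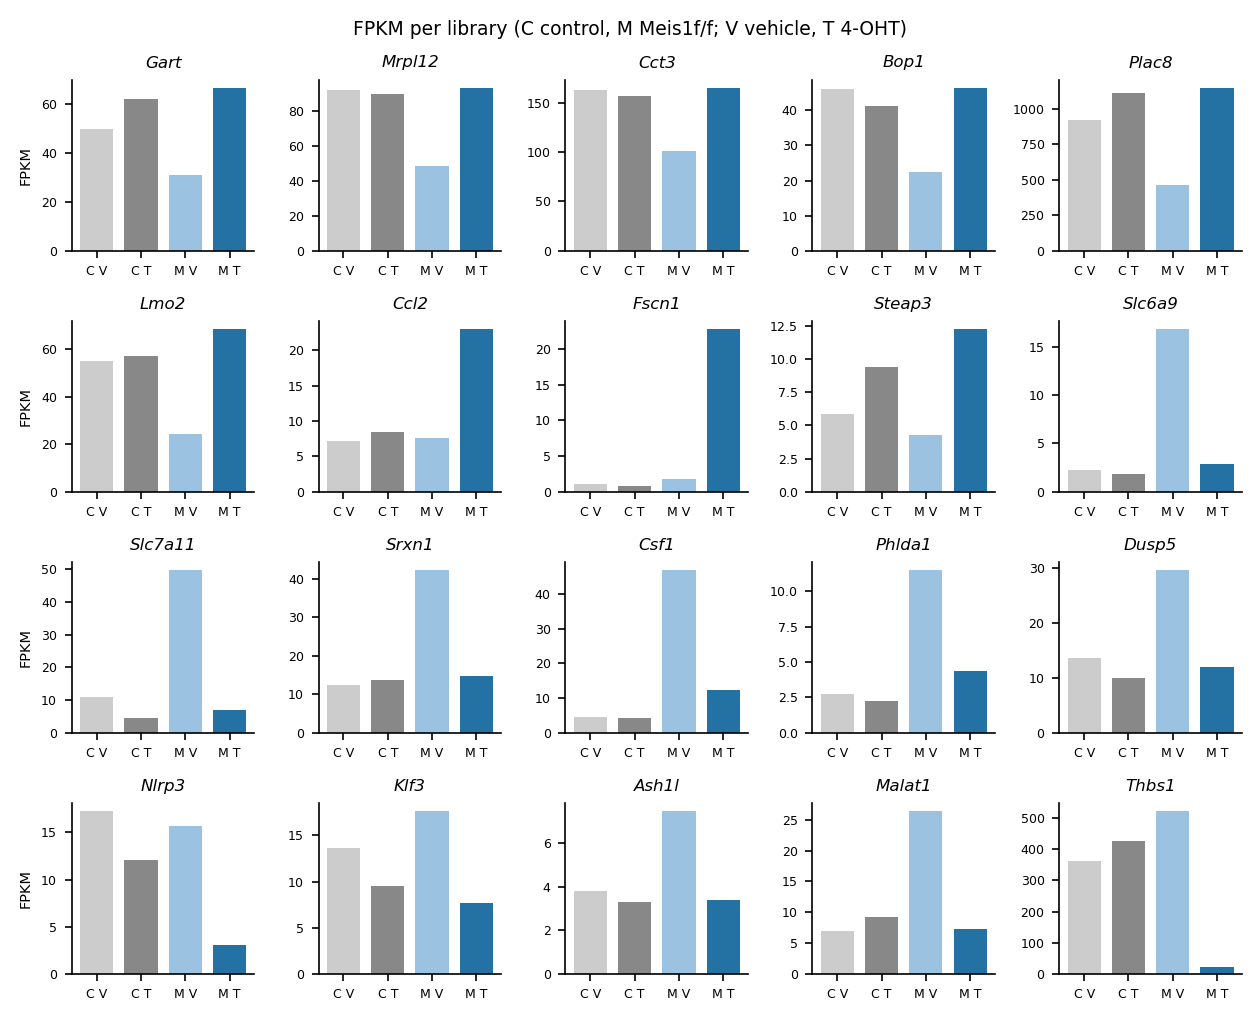
FPKM of 20 named genes in each library (C V control vehicle, C T control 4-OHT, M V Meis1f/f vehicle, M T Meis1f/f 4-OHT), each panel from 0 on its own scale, 1 library per bar with no error bar. Gart to Lmo2 are low in Meis1f/f vehicle, Ccl2 to Steap3 are highest in Meis1f/f 4-OHT, Slc6a9 to Dusp5 are high in Meis1f/f vehicle, and Nlrp3 and Thbs1 are low in Meis1f/f 4-OHT.

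Lists made of very long transcripts had medians below 0 and few calls. Histone methyltransferases and demethylases (median length 5164 bases) had 0 of 36 called and a median of -0.13, or -0.17 after length subtraction. Ash1l was at 3.82, 3.30, 7.45 and 3.38 FPKM and Ehmt2, a shorter H3K9 methyltransferase, was at 21.9, 18.6, 10.9 and 19.9 FPKM, in the opposite direction. Chromatin remodellers (median length 7548 bases) had 0 of 26 called and a median of -0.12 (-0.08 after subtraction), with Chd2 at 7.98, 5.54, 12.6 and 6.20 FPKM. Large ubiquitin ligases (median length 9310 bases) went from -0.18 to -0.04. The subtraction used length classes and not single lengths, so the longest transcripts within the last class may keep part of the trend.

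Chromosomes differed little. Medians of 20 chromosomes ran from -0.02 (chromosome 18) to 0.19 (chromosome 16), and from -0.07 to 0.09 after length subtraction. Of 10883 pairs of adjacent genes compared, 17 (0.156%) had both genes called, 11 in the same direction and 6 in opposite directions. Pairs with both genes at 5 FPKM or more were Kmo with Opn3 and Ccl2 with Ccl7 (higher), and Il4 with Il13, Cd300lb with Cd300ld, Il1f9 with Il1rn and Malat1 with Neat1 (lower). Kmo, kynurenine monooxygenase of tryptophan breakdown, was at 1.69, 5.48, 2.30 and 9.91 FPKM and its neighbour Opn3 at 3.14, 5.18, 2.55 and 6.66 FPKM. Cd300lb, an activating receptor of myeloid cells, was at 22.6, 10.1, 22.5 and 9.71 FPKM and Cd300ld at 5.46, 4.15, 9.23 and 4.02 FPKM. Kmo and Cd300lb changed alike with 4-OHT in the control cells, which lack CreER.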

How the data were processed

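RNA was sequenced from 4 cultures, 1 library per group, and each library was taken to its group from its title. The submitters' processing notes name Bowtie as a tool and mm8 as the genome build. Versions, annotation, read length and strandedness were not given in the sources used here. Per library, the authors deposited 28107 transcript rows for 22072 symbols, with an FPKM column and a coverage column, a signal of mean depth per base, per the file headers. Whether the deposited coordinates follow mm8 was not settled, so no deposited coordinate is printed.

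Rows marked OK in all 4 libraries were used (394 were not), with the row of highest mean FPKM for each symbol and a floor of 1 FPKM in at least 1 library. Differences are of log2(FPKM + 1), which understates differences of low genes. The length trend was removed by subtracting the median of each of 10 length classes. No count test was run, since no counts were recovered. Depth came from coverage divided by FPKM, and 95% exact (Clopper-Pearson) intervals of single ratios assume 100 bases per read. The calculation was tested on simulated data. Python 3.11.15, numpy 2.4.6, pandas 2.3.3, scipy 1.17.1 and matplotlib 3.10.9 were used. Promoters came from RefSeq on GRCm38.p6, and 8697 of 10922 genes (79.6%) were matched by symbol.

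The 67 lists and their members were chosen with earlier results of these data known. Named were Meis1, Hlf and Esr1, the 4 highest and 4 lowest called genes in each of 4 classes of level from 5 FPKM, and those of the shortest and longest length class. Also named were the 5 genes farthest apart from the other 3 libraries in each direction, up to 4 members per list and pairs of neighbours, in a Meis1f/f library at 5 FPKM or more except for list members. Small RNAs, unnamed models and genes whose summed rows did not differ by 1 were left out of these rankings. Named outside this rule, after their values were seen, were Slc7a1, Slc3a2, Asns, Ep300, Slc23a2, Med21, Tufm, Orc3, Gemin5, Spp1, Fn1, Il6, Il1b, Ccl17, Cxcl2, Irf4 and Me1. Of the lists, those the text does not describe are shown in the plot of list medians. Alternatives were the pseudocount, the floor, rescaling by median ratio or upper quartile, summed rows, genes with 1 row, rows of any status and, added after the data were seen, transcripts of 200 bases or more. A few members of the lists are not reported here.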

Additional observations from a re-analysis of the deposited data

Results flagged for a closer look

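Neat1, a long noncoding RNA that scaffolds nuclear paraspeckles, moved in opposite directions with 4-OHT in the 2 genotypes. Its level went from 13 FPKM under vehicle to 29.4 under 4-OHT in control cells and from 29.0 to 13.3 in Meis1f/f cells, so that the log2 difference was -1.07 in Meis1f/f cells and 1.11 in control cells. With 1 library per group the difference between the genotypes was not tested. The Meis1f/f levels did not leave the range of the control libraries.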

How the results depend on the processing

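No paired analysis was possible because each group holds 1 library, and for the same reason no replicate could be left out. The counts of called genes depended most on the pseudocount: 0.1 gave 423 higher and 433 lower genes and 5 gave 38 and 72. After the length trend was removed the corresponding counts were 267 and 543 with a pseudocount of 0.1 and 23 and 96 with 5. Higher genes after length removal numbered 179 with no floor and 66 with a floor of 5 FPKM. Median ratio rescaling left 114 higher genes, all among the original 178. Without the floor, which admits 21917 genes and many listed at or near 0, Spearman's correlation of length with the difference was -0.11 and the medians of the shortest and longest length classes were 0 and -0.011. Under median ratio rescaling these medians were 0.11 and -0.27. Summing rows gave 145 higher and 232 lower genes, of which 141 and 217 were among the original calls. No called gene among those named by the rule reversed under any alternative, but these alternatives could hardly turn the sign of a large difference. Calls were lost in 70 combinations of a gene and an alternative. With a pseudocount of 5, Errfi1 (-0.59), Ccl7 (0.69) and Dio2 (0.65) were among those that fell short. Genes named outside the rule were not in this check. Of the 67 list medians, 20 took the other sign under at least 1 alternative, length removal included. As reported, these 20 had values from -0.16 to 0.22. Depth limits low genes: a transcript of 2 kb at 1 FPKM held 1648 mapped bases in Meis1f/f 4-OHT and 3865 in Meis1f/f vehicle.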
